A study of Rattus norvegicus with 9 samples.

Results

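Disease-associated microglia (DAM) genes are the genes that microglia, the resident macrophages of brain and retina, are known to switch on around neurodegenerative lesions and dying neurons. The 10 genes examined here (Apoe, Cst7, Lpl, Spp1, Clec7a, Gpnmb, Lgals3, Fabp5, Cd9 and Csf1) are a fixed list of such genes, looked up by symbol in a table of raw counts. All 10 were among the 28343 genes of that table, and 9 of the 10 had enough counts to be among the 11748 genes tested. Spp1 did not. The libraries came from retinal microglia of Dark Agouti rats, an inbred strain, and were made from 5 control and 4 diabetic samples. Control rats received citrate buffer. Diabetic rats received streptozotocin, which destroys pancreatic beta cells, at 55 mg/kg. Rats of both groups were injected at 8 to 10 weeks of age, after 12 hours of fasting. Insulin (2 units) was added when a reading passed 30 mmol/l, so the diabetic group carried streptozotocin, hyperglycaemia and, where needed, insulin together. Retinas of both groups were taken 4 weeks after the injection, digested with papain and sorted for CD11b, a surface integrin that other myeloid cells also carry.

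In mouse models of Alzheimer disease the DAM program is known to begin with a fall of homeostatic genes and a rise of Apoe, Tyrobp and lysosomal genes, and to continue, when the receptor Trem2 is present, with genes of lipid uptake and phagocytosis such as Lpl, Cst7, Clec7a, Gpnmb and Spp1. Apolipoprotein E carries cholesterol and phospholipid out of cells and is also a ligand of Trem2. In the retina, Muller glia are a well-known second source of Apoe.

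Total counts ran from 9156591 to 11332823 in control and from 6228756 to 9629829 in diabetic libraries. The homeostatic markers Cx3cr1 (2184 CPM among controls against 2392 CPM among diabetic libraries), P2ry12 (1647 and 1600.2 CPM) and Tmem119 (2920 and 2641 CPM) were abundant in both groups, while Siglech was listed at 0 in all 9 libraries. Libraries of the same group differed. Immediate-early and stress genes, which cells switch on during dissociation and sorting and are called the cell isolation list here, had a mean log2 CPM of 8.06, 6.89, 9.90, 8.25 and 10.13 in controls 1, 3, 4, 5 and 6, against 8.41 to 9.61 among diabetic libraries. All 8 counted border macrophage markers were higher on average in the diabetic group, with a summed level of 395 to 802 CPM among controls against 673 to 1481 CPM among diabetic libraries. The 4 tested neutrophil and monocyte markers were higher on average there too, and the 9 counted ones summed to 4.64 to 11.3 CPM among controls against 24.5 to 88.2 CPM among diabetic libraries, with Ccr2 and Lcn2 at 0 throughout. None of these markers passed the adjusted threshold of the edgeR test given below, but some did under alternatives, all of them as higher in diabetic libraries. The DESeq2 Wald test called 4 of the border macrophage and 3 of the neutrophil and monocyte markers, where it called 4.88% of all genes, and the fit with the cell isolation list as a covariate called 5 and 3 of them, where it called 12.7% of all genes. Colec12, a scavenger receptor, passed under 6 of the 17 alternatives and S100a8, a neutrophil calcium-binding protein, under 3. The labels do not state that each library was 1 rat, so the p-values measure the spread between these libraries.

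No tested DAM gene was called as different in diabetic microglia. By the edgeR quasi-likelihood F test, with Benjamini-Hochberg adjustment over all genes, 0 of 9 passed an adjusted p of 0.05, and 0 of 9 had an unadjusted p below 0.05. Over all genes 0.0681% passed the adjusted threshold and 18.9% had an unadjusted p below 0.05. The DESeq2 Wald test also called 0 of 9 and gave an unadjusted p below 0.05 to Lpl and Clec7a, and limma-voom gave 0 of 9 by either measure. The libraries of the groups overlapped for each of the 9 genes, whereas they were apart for 8.44% of all genes tested. Of the 9 genes, 3 had a fitted value above 0 (Clec7a, Cst7 and Lgals3) and 6 below 0, with a median log2 fold change of -0.31, against 0.0018 over all genes tested. The fitted values ran from -1.53 for Csf1 to 0.50 for Clec7a. In bulk RNA, fewer cells of a type and less RNA per cell cannot be told apart, and this holds for each value given here.

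**Figure D1:**
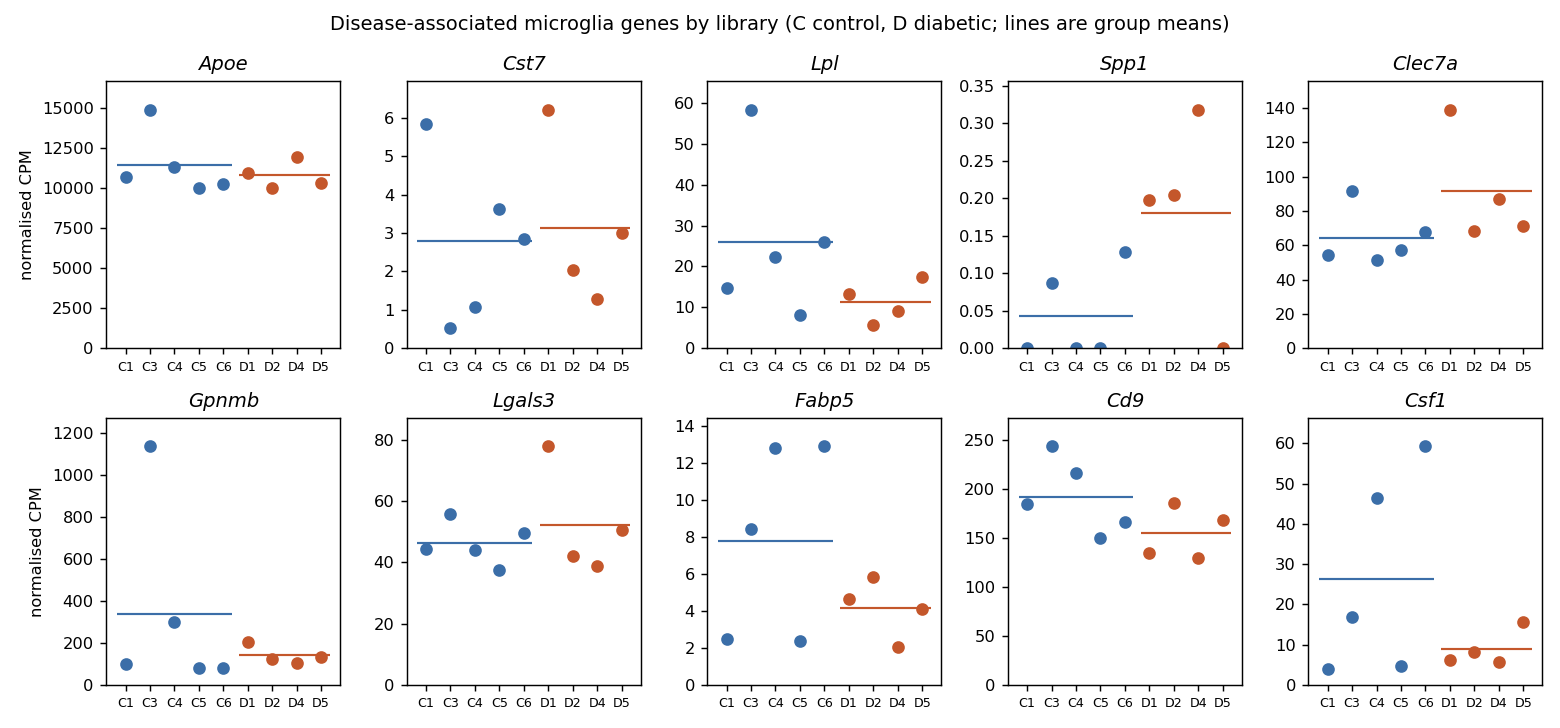
Normalised CPM (vertical axis, a scale of its own in each panel, starting at 0) of the 10 disease-associated microglia genes in each library (horizontal axis; C control, D diabetic). Each point is a library and each line a group mean. Control 3 stands at 1135 CPM for Gpnmb, far above every other library, and Spp1 stays at or below 0.318 CPM.

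The widest spread lay inside the control group. Gpnmb, which encodes a membrane glycoprotein of lysosome-rich phagocytes and pigment cells, ranged 14.6-fold between control libraries and 1.95-fold between diabetic libraries. Csf1 ranged 14.95-fold between controls, Cst7 11.2-fold, Lpl 7.27-fold and Fabp5 5.48-fold. The SD of log2 CPM among controls was larger than that of 98.9% of tested genes for Gpnmb, 99.1% for Csf1, 97.4% for Cst7, 97.2% for Fabp5 and 96.0% for Lpl. Apoe, Lgals3, Cd9 and Clec7a lay near the middle, at percentiles of 39.1 to 63.2. Genes of every level enter these percentiles, and counting error alone widens the log2 spread of a gene with few counts. Cst7 had 6 to 62 counts among controls and Fabp5 22 to 119, against 607 to 13092 for Gpnmb. Among diabetic libraries the percentiles were 95.9 for Cst7, 91.7 for Lpl, 91.2 for Csf1, 89.6 for Fabp5 and 79.6 for Gpnmb, and those of Clec7a (83.3) and Lgals3 (82.1) were higher than among controls. Control 3 had the highest level of 4 members (Apoe, Lpl, Gpnmb and Cd9), diabetic 1 of 3 (Cst7, Clec7a and Lgals3) and control 6 of 2 (Fabp5 and Csf1).

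The promoters of 3 of the members that were highest in control 3 are shown because they share a 6-letter E-box, the kind of element that MITF and TFE factors, regulators of lysosomal genes, are known to bind. The windows are the 250 bases before an annotated start, 5′ to 3′ on the gene's strand, from RefSeq on GRCr8, and capitals mark the E-box (CATGTG, read on either strand as CATGTG or CACATG). They are chr4:79340878-79341127 on the plus strand for Gpnmb, chr1:88485817-88486066 on the minus strand for Apoe and chr4:159975359-159975608 on the minus strand for Cd9.
Gpnmb: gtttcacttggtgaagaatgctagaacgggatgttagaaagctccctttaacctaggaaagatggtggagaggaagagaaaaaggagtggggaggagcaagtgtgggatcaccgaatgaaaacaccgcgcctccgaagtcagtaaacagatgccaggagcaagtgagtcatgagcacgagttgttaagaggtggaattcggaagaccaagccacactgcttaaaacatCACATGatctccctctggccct
Apoe: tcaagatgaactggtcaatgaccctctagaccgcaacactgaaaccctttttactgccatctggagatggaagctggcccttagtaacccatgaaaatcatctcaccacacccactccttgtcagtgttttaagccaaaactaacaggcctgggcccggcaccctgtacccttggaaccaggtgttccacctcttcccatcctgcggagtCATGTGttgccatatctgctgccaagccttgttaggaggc
Cd9: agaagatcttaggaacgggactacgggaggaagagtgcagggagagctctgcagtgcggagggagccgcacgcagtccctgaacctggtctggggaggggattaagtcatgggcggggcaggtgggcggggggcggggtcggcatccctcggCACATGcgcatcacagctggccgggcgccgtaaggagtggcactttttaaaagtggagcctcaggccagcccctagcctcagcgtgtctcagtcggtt

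The E-box began 22 bases before the start in Gpnmb, 40 bases before it in Apoe and 98 bases before it in Cd9. RefSeq windows were found for 6 of the 10 members, in 8 entries, since Apoe has 3 starts; the window shown is that of the start farthest upstream, and the other entries of Apoe lack the letters. Lpl, also highest in control 3, has no window, so it was not searched. Cst7, Spp1 and Clec7a hold no CATGTG in theirs, and no entry holds CACGTG, the palindromic E-box. Of all 33469 windows of this length, 12.1% hold CATGTG and 5.59% hold CACGTG. The windows were chosen after the values of the members had been seen, and a match describes letters only. Mitf itself was at 18.5 to 28.8 CPM among controls against 17.7 to 22.8 CPM among diabetic libraries (log2 fold change -0.18, SE 0.16, adjusted p = 0.533).

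Among the lipid-handling members, Apoe was by far the most abundant. Controls 1, 3, 4, 5 and 6 held 10689, 14904, 11312, 10035 and 10287 CPM of it, and diabetic libraries 1, 2, 4 and 5 held 10915, 10008, 11952 and 10336 CPM. Control 3 stood above all other libraries, and the remaining controls lay within the range of the diabetic libraries. Apoe took up 0.863% to 1.52% of all counts and ranked from the 3rd to the 7th most counted gene. The means of 11445 ± 1993 CPM over controls (SD, n = 5) and 10803 ± 853 CPM over diabetic libraries (SD, n = 4) gave a fitted log2 fold change of -0.083 (95% interval -0.33 to 0.16, adjusted p = 0.702), and the fitted value was 0.030 without control 3. The 10 Muller glia markers summed to 2465 to 2686 CPM among controls against 2078 to 2337 CPM among diabetic libraries, with Kcnj10 at 0 to 6 counts, and their part in the level of Apoe was not tested. Glul (means of 1211 CPM over controls and 1079 CPM over diabetic libraries) and Slc1a3 (886 and 693 CPM) had the highest CPM of these markers, not scaled by gene length, and weigh most in the sum. Of the 9 tested markers, 3 had fitted values above 0 and 6 below. The libraries of the groups were apart for 1 of them, Glul, which was lower in diabetic libraries, as were 4.16% of all genes tested. They overlapped for the others, among them Rlbp1 (25.5 to 56.2 CPM among controls against 24.2 to 60.2 CPM among diabetic libraries). Car2 and Slc1a3 passed as lower in diabetic libraries by the DESeq2 Wald test and with the cell isolation covariate, settings that called 4.88% and 12.7% of all genes.

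Lpl encodes lipoprotein lipase, which frees fatty acids from lipoprotein triglyceride. Its level was 14.7, 58.4, 22.3, 8.02 and 25.9 CPM in controls 1, 3, 4, 5 and 6 and 13.1, 5.71, 9.08 and 17.3 CPM in diabetic 1, 2, 4 and 5. Control 3 was 2.25 times the next control, while controls 4 and 6 also lay above every diabetic library, and controls 1 and 5 lay within the diabetic range. The log2 fold change was -1.19 (95% interval -2.54 to 0.16, adjusted p = 0.306). Without control 3 it was -0.64, with an adjusted p of 0.407.

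Fabp5 encodes a fatty acid carrier of the cytosol. The controls, in the order 1, 3, 4, 5 and 6, had 2.45, 8.41, 12.8, 2.35 and 12.9 CPM, and diabetic 1, 2, 4 and 5 had 4.64, 5.82, 2.07 and 4.10 CPM. Controls 3, 4 and 6 lay above every diabetic library, and controls 1 and 5 lay between diabetic 4 and the other diabetic libraries. The log2 fold change was -0.88 (95% interval -2.12 to 0.37, adjusted p = 0.400). Counts were few, at 13 to 119 per library, and RefSeq lists pseudogenes of Fabp5 in the rat, which can share its reads.

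Of the phagocyte membrane and lysosome members, Gpnmb showed the largest gap between 1 library and the rest. Its level in controls 1, 3, 4, 5 and 6 was 101, 1135, 297, 77.8 and 78.2 CPM, and that in diabetic 1, 2, 4 and 5 was 205, 122, 105 and 133 CPM. Control 3 was 3.83 times the next control, and 3 of the 5 controls lay below every diabetic library. Its log2 fold change of -1.26 (95% interval -3.44 to 0.92, adjusted p = 0.479) turned to 0.031 without control 3. The same library stood apart in the authors' transcript assemblies, made from the same reads, where the Gpnmb locus (ENSRNOG00000008816, Rnor6 chromosome 4, 78694447 to 78715683, plus strand) held 214 TPM in control 3, 16.5 to 49.6 TPM in the other controls and 16.7 to 35.7 TPM in diabetic libraries.

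Cd9 is a tetraspanin, a scaffold protein of the cell surface and of exosomes. Controls 1, 3, 4, 5 and 6 held 185, 243, 216, 149 and 166 CPM of it, and diabetic libraries 1, 2, 4 and 5 held 134, 186, 129.6 and 169 CPM. The highest libraries were controls 3 and 4 and the lowest were diabetic 1 and 4, with overlap between. The log2 fold change was -0.31 (95% interval -0.65 to 0.027, adjusted p = 0.294).

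Lgals3 encodes galectin-3, a sugar-binding protein that gathers at damaged lysosomes. Its level was 44.4, 56.0, 43.9, 37.4 and 49.7 CPM in controls 1, 3, 4, 5 and 6 and 78.0, 42.0, 38.9 and 50.5 CPM in diabetic 1, 2, 4 and 5. Diabetic 1 lay above all other libraries and the other diabetic libraries lay within the control range. The log2 fold change was 0.18 (95% interval -0.25 to 0.61, adjusted p = 0.630), and it was -0.079 without diabetic 1.

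Clec7a, which encodes dectin-1, a receptor of fungal beta-glucan that signals through Syk, had the highest fitted value of the members. The controls, in the order 1, 3, 4, 5 and 6, had 54.2, 91.6, 51.1, 57.2 and 67.9 CPM, and diabetic 1, 2, 4 and 5 had 139, 68.4, 86.8 and 71.5 CPM. All 4 diabetic libraries lay above 4 of the 5 controls, and control 3 lay above 3 of the 4 diabetic libraries. The log2 fold change was 0.50 (SE 0.24, 95% interval -0.026 to 1.04, adjusted p = 0.282), and it was 0.23 without diabetic 1 and 0.67 without control 3. Border macrophages are known to carry dectin-1 too. Their 8 counted markers, none of them at 0 in any library, summed to 1481 CPM in diabetic 1 and 802 CPM in control 3, the highest library of each group for Clec7a as well, against 395 to 558 CPM in the remaining controls and 673 to 1078 CPM in the remaining diabetic samples. Their part in the level of Clec7a was not tested.

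Cst7 encodes cystatin F, an inhibitor of lysosomal cysteine proteases. Controls 1, 3, 4, 5 and 6 held 5.85, 0.520, 1.07, 3.64 and 2.84 CPM of it, and diabetic libraries 1, 2, 4 and 5 held 6.22, 2.04, 1.27 and 2.999 CPM. The highest and the lowest libraries of the controls enclosed all but 1 of the diabetic libraries. With 6 to 63 counts per library the interval was wide, at -1.22 to 1.60 around a log2 fold change of 0.19 (adjusted p = 0.891). Control 3, the highest library for Gpnmb, Lpl, Apoe and Cd9, was the lowest for Cst7.

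Of the secreted signals, Csf1, a growth factor that keeps microglia alive through Csf1r, had the fitted value farthest from 0. Its level was 3.96, 16.8, 46.4, 4.71 and 59.3 CPM in controls 1, 3, 4, 5 and 6 and 6.22, 8.27, 5.57 and 15.7 CPM in diabetic 1, 2, 4 and 5. Controls 4 and 6 stood far above the rest, and controls 1 and 5 were the lowest of all libraries. The log2 fold change was -1.53 (SE 0.90, 95% interval -3.63 to 0.56, adjusted p = 0.379), and it was -0.99 without control 6. Controls 4 and 6 were also the highest for Fabp5 and had the highest level of the cell isolation list, none of whose 17 counted genes was at 0 in any library. Control 3, with the lowest mean log2 CPM of that list (6.89), came next for Csf1 (16.8 CPM) and Fabp5 (8.41 CPM). Diabetic 5, with a mean of 9.61, had 15.7 and 4.10 CPM of them. With the mean of that list as a covariate the log2 fold change was -1.55 for Csf1 (adjusted p = 0.190) and -0.94 for Fabp5 (adjusted p = 0.251), while that of Gpnmb moved from -1.26 to -0.66 (adjusted p = 0.637).

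Spp1 encodes osteopontin, a secreted ligand of integrins and CD44 and a leading DAM gene in brain. It had 1 count in control 3, 1 in control 6 and 0 in controls 1, 4 and 5, and 2 counts each in diabetic 1, 2 and 4 and 0 in diabetic 5. Every library lay below 3 counts, the limit that a count of 0 allows, which is 0.260 to 0.478 CPM per library for counting error only, so no fold change is given. Of the genes on the other lists, 10 were listed at 0 in all 9 libraries, among them Cd151 and Tspan4, tetraspanins that many cell types use. A count near 0 in this table therefore does not show that the RNA was absent.

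**Figure D2:**
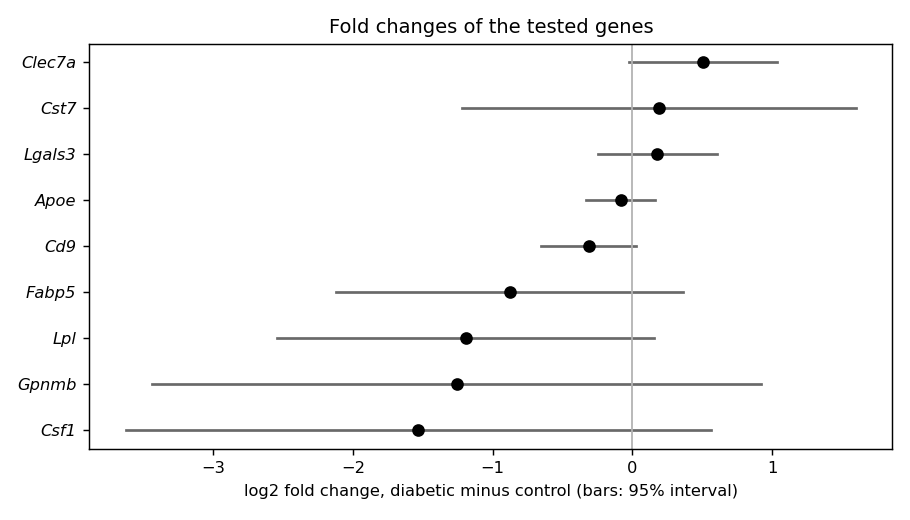
Log2 fold change of diabetic minus control (horizontal axis) for the 9 tested genes, ordered by value. Points are the fitted values and bars the 95% intervals, all of which include 0, from -3.63 to 0.56 for Csf1 to -0.026 to 1.04 for Clec7a.

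Levels of the members were set beside each other per length, as TPM summed over the assembled transcripts of a locus. The control medians were 4534 TPM for Apoe, 99.1 for Cd9, 30.3 for Gpnmb, 15.9 for Clec7a, 5.87 for Fabp5, 5.57 for Csf1 and 3.15 for Lpl. The control range of Apoe (3810 to 6446 TPM) lay apart from that of Cd9 (81.6 to 127 TPM). From Cd9 downward each gene overlapped its neighbour in the order, with 10.1 to 27.5 TPM for Clec7a, 3.09 to 22.0 for Fabp5, 0 to 18.1 for Csf1 and 0 to 8.04 for Lpl. No transcript was assembled at the Csf1 locus in controls 1 and 5 and in diabetic 1, 2 and 4, which were the libraries with the fewest Csf1 counts. Cst7, Spp1 and Lgals3 had no reference transcript in any assembly. The others had one in 1 library (Lpl), 2 (Clec7a and Csf1), 3 (Fabp5 and Cd9), 5 (Apoe) or 8 (Gpnmb). The sums also include assembled transcripts at the locus that carry no gene name. For Apoe these were most of the level, since its reference transcripts held 6.73 to 227 TPM where present. The loci on Rnor6 are chromosome 1, 80612895 to 80615704, minus strand for Apoe, chromosome 4, 157977162 to 158010166, minus strand for Cd9 and chromosome 4, 163216163 to 163227334, minus strand for Clec7a. Those of Fabp5 (chromosome 2, 93981656 to 93985378), Csf1 (chromosome 2, 210522375 to 210550546) and Lpl (chromosome 16, 22537056 to 22561496) are on the minus strand too.

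The profiles fell into several shapes. By the root-mean-square difference of centred log2 CPM over the 9 libraries, the genes nearest to Gpnmb were Hpse (0.67) and Nbl1 (0.68), against a spread of Gpnmb itself of 1.16. Nearest to Lpl were Flvcr2 (0.41) and Hpgds (0.52), with a spread of 0.94. Csf1 was nearest to PVR (0.48) and Bcl6b (0.49), with a spread of 1.32, and Fabp5 to Oasl (0.36) and Ifit2 (0.39), with a spread of 0.92. None of these neighbours is itself a member. Clec7a was nearest to Odf3l1 (0.16) and Msr1 (0.17), Cst7 to Gpr171 (0.44) and Ifitm1 (0.48), and Lgals3 to Mcu (0.17) and Ift27 (0.18). Apoe was nearest to Esd (0.060) and Rgs10 (0.062), and Cd9 to Tmem260 (0.13) and Serpini1 (0.14).

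**Figure D3:**
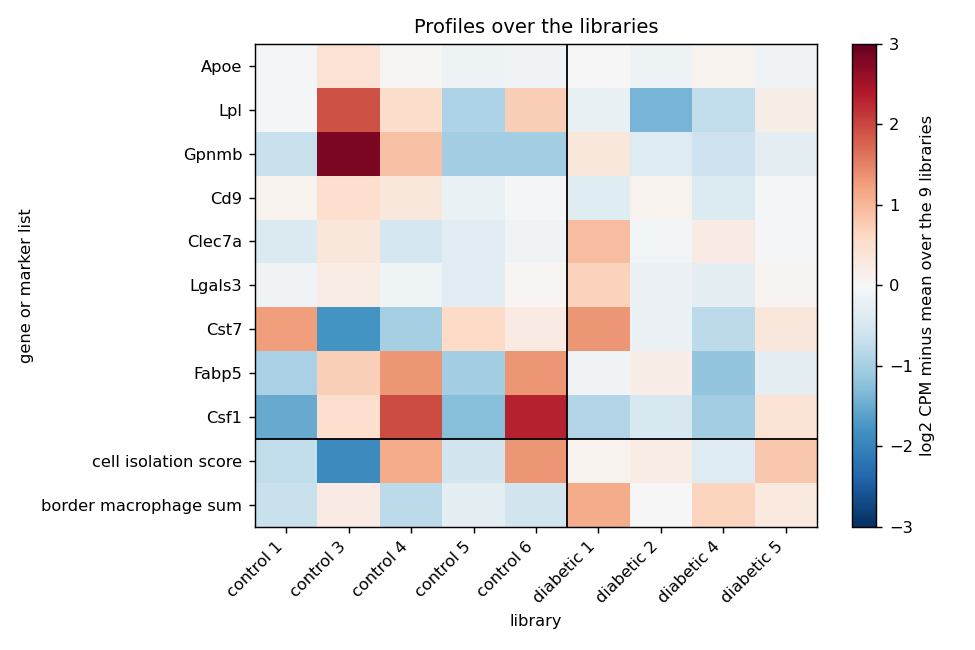
Log2 CPM minus the mean over the 9 libraries (colour, red above and blue below) for the tested genes and, under the line, for the cell isolation score and the summed border macrophage markers. Columns are libraries, with controls left of the line. Gpnmb and Lpl are highest in control 3, where the cell isolation score is lowest (6.89), and Csf1 and Fabp5 are highest in controls 4 and 6, where it is highest (9.90 and 10.13). Control 3 comes next for both Csf1 and Fabp5.

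Other genes of the DAM program were then read from lists. Among 6 early genes that do not need Trem2, 0 passed, 4 had fitted values above 0 and the median log2 fold change was 0.072. Tyrobp, the adaptor of Trem2, averaged 650 ± 104 CPM over controls (SD, n = 5) against 898 ± 208 CPM over diabetic libraries (SD, n = 4), with a log2 difference of 0.47 (adjusted p = 0.153). Ctsd, a lysosomal protease, was at 2457 to 2754 CPM among controls against 2164 to 2429 CPM among diabetic libraries (log2 fold change -0.23, adjusted p = 0.135; it passed by the DESeq2 Wald test only), and Fth1, a ferritin subunit, had a log2 fold change of 0.20 (adjusted p = 0.351).

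Of 18 tested genes of the wider program, 0 passed, 9 had fitted values above 0 and 9 below, and the median was -0.0077. Trem2 itself averaged 800.5 ± 75.2 and 842 ± 48.9 CPM (log2 fold change 0.072 and adjusted p = 0.673). The 3 smallest p-values belonged to genes with values above 0, for which all 4 diabetic libraries lay above all 5 controls, a pattern shown by 4.27% of all genes tested. Ccl6, a chemokine, was at 152 to 239 CPM among controls against 272 to 422 CPM among diabetic libraries (log2 fold change 0.84, SE 0.16, adjusted p = 0.0671). Axl, a receptor for dying cells, was at 292 to 473 and 509 to 778 CPM (0.72, SE 0.16, adjusted p = 0.0895), and Capg, an actin-capping protein, was at 134 to 173 and 183 to 313 CPM (0.55, SE 0.16, adjusted p = 0.119). Ccl6, Axl and Capg each passed by the DESeq2 Wald test and with the cell isolation list as a covariate, settings that called 4.88% and 12.7% of all genes. The covariate fit called 7 of the 18 genes, 4 as higher and 3 (Ctsl, Hif1a and Cd83) as lower. Border macrophage markers differed between the groups in the same direction as Ccl6, Axl and Capg, and opposite to Ctsl, Hif1a and Cd83. The part of border macrophages in these levels was not tested.

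Homeostatic genes are known to fall in DAM. Of 16 tested, 0 passed, 6 had fitted values above 0 and 10 below, and the median was -0.077. Tgfbr1, a receptor of TGF-beta, averaged 1259 ± 203 CPM over controls (SD, n = 5) and 853 ± 107 CPM over diabetic libraries (SD, n = 4), with a log2 fold change of -0.56 (adjusted p = 0.0897). All diabetic libraries lay below all controls for Tgfbr1, as they did for 4.16% of all genes tested. Of the 16 genes, the DESeq2 Wald test called 1 as higher and 2 as lower, and the covariate fit called 1 as higher and 3 as lower. Over all genes these settings called 4.88% and 12.7%.

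Partners of the members were read the same way, and 0 genes passed in any of these lists by the edgeR test without covariates. On the receptor side of Csf1, Csf1r averaged 11107 ± 601 and 10034 ± 388 CPM (log2 fold change -0.15 and adjusted p = 0.249), Il34, the other ligand of that receptor, had 0.42 (adjusted p = 0.405), and Csf2ra, a receptor chain for GM-CSF, was at 14.9 to 18.8 CPM among controls against 20.8 to 43.1 CPM among diabetic libraries (1.00, adjusted p = 0.0620). Csf2ra passed under 7 of 17 alternatives. Around Clec7a, 5 of 8 genes had fitted values above 0 and 3 below, with a list median of 0.22. The lectin Clec4d had 1.59 (adjusted p = 0.0895), on 19 to 139 counts. The signalling genes Plcg2 (-0.31) and Malt1 (-0.44) had adjusted p-values of 0.217 and 0.224, while Syk (0.26), Card9 (0.18) and Fcer1g (0.30) lay above 0. Clec4d passed as higher by the DESeq2 Wald test and in the covariate fit, and Plcg2, Malt1 and Bcl10 passed as lower in the covariate fit. Over all genes these settings called 4.88% and 12.7%.

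Of 12 receptors and relatives of osteopontin and galectin-3, 8 had fitted values below 0, and the smallest p-values were those of the integrin chain Itgb1 (-0.38, adjusted p = 0.0892), the phagocytic receptor Mertk (-0.41, adjusted p = 0.110) and the integrin chain Itga9 (-0.43, adjusted p = 0.158). The covariate fit called 6 of the 12 as lower, where it called 940 of all 11748 genes tested as lower. The DESeq2 Wald test called 2 (Itgb1 and Mertk), where it called 4.88% of all genes. Of 14 lipid-handling partners 10 were below 0, with a list median of -0.27, and the smallest p-values were those of the lysosomal lipase Lipa (-0.23, adjusted p = 0.185), Soat1 (-0.32) and the oxysterol receptor gene Nr1h3 (-0.56). Of 6 tetraspanins 5 were below 0, among them Cd53 (-0.23, adjusted p = 0.152), Cd81 (-0.14) and Cd63 (-0.31). Of 6 cystatins and target proteases 4 were below 0, with Ctsl (-0.37, adjusted p = 0.190), Lgmn (-0.14) and, above 0, Ctsh (0.17). Of 9 regulators of lysosomal and DAM genes 4 were above 0, with Cebpa (0.50, adjusted p = 0.143), Tfeb (0.22, adjusted p = 0.207) and Rxra (0.25, adjusted p = 0.297) having the smallest p-values.

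Which library was left out decided several directions. The fitted value for Gpnmb lay between -1.51 and -1.14 without any library other than control 3, and at 0.031 without that library. Cst7 ranged from -0.38 without diabetic 1 to 0.67 without control 1, and Clec7a from 0.23 to 0.67. Csf1, Lpl, Fabp5 and Cd9 stayed below 0 and Clec7a above 0 whichever library was left out, with Csf1 between -1.95 without diabetic 5 and -0.99 without control 6, and none of the 9 passed in any of these fits.

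**Figure D4:**
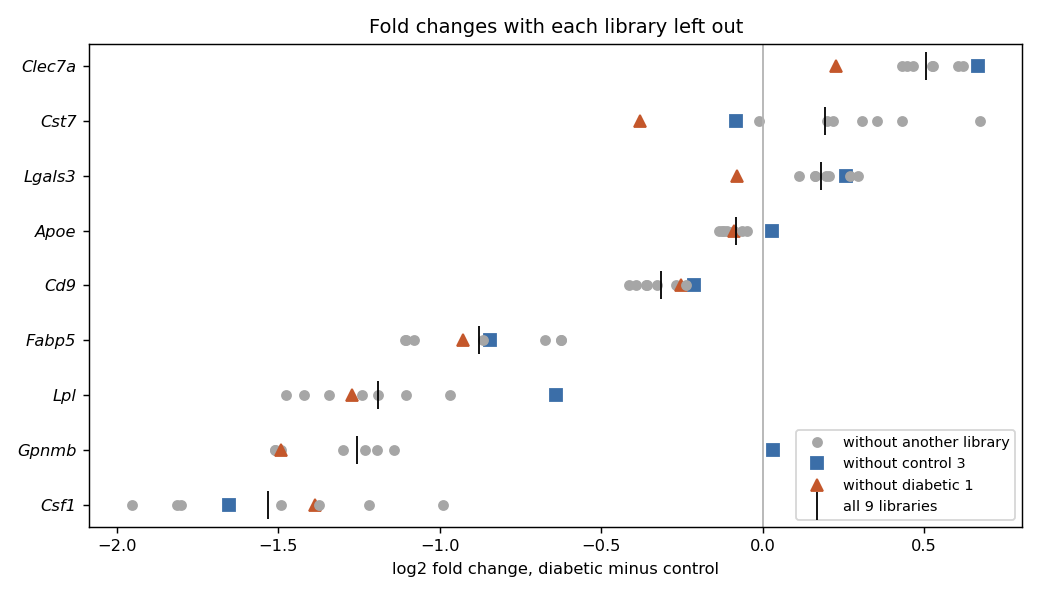
Log2 fold change of diabetic minus control (horizontal axis) for the 9 tested genes with each library left out in turn. Bars mark the fit of all 9 libraries, squares the fit without control 3, triangles the fit without diabetic 1 and circles the other fits; the square for Gpnmb lies at 0.031 while its other fits lie below -1.

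The authors' deposited table held 9 of the 10 members among its 12069 genes, and 0 of them had an adjusted p below 0.05. In the authors' deposited table the adjusted p-values of the members ran from 0.161 for Clec7a to 0.982 for Apoe. The authors' deposited table gave log2 fold changes of 0.62 for Clec7a, -1.08 for Lpl and -1.34 for Csf1, with unadjusted p-values of 0.0100, 0.0140 and 0.0207, and gave Apoe the opposite sign, at 0.025. The edgeR fit without normalization factors gave 0.62, -1.08, -1.33 and 0.024 for the same genes, with unadjusted p-values of 0.0284, 0.100, 0.154 and 0.857.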

How the data were processed

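The authors deposited raw counts per gene symbol for 9 libraries (5 control, 4 diabetic), made by SmartSeq preamplification and Nextera XT, per the labels' protocols. The submitters' processing notes name bcl2fastq 2.18.0.12, TopHat2 2.0.14, StringTie 1.2.4 and edgeR on Rnor_6.0; neither the counting program nor its use of strand is given in the sources used here, so overlapping genes and near-identical copies can share reads. The authors also deposited a comparison with log2 fold changes (diabetic minus control, by their signs against the counts), p-values and adjusted p-values, and StringTie assemblies with TPM, per the file headers.

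Samples were grouped by their treatment labels. Genes were kept by filterByExpr (minimum count 10, total 15), scaled by TMM and fitted in edgeR 4.0.16 (R 4.3.3; glmQLFit, robust) without covariates, and diabetic minus control was tested by glmQLFTest. SE is the fold change divided by the root of F, and 95% intervals use the t distribution of the fit. CPM uses TMM-scaled totals, and log2 CPM a prior count of 2. DESeq2 1.42.0 and limma 3.58.1 were alternatives, with other scalings, no filter, the cell isolation list as covariate, a replicate block and each library left out. The fit was tested on simulated data. The members and lists were chosen with earlier results of these data known. Named list genes are those past the threshold, or else up to 3 with the smallest p per list, and 2 nearest profiles per member. Some genes that this rule names are not reported here. Mitf, Trem2, Cx3cr1, P2ry12, Tmem119, Cd151, Tspan4 and Siglech, and genes named for their calls under alternatives, were chosen after their values were seen. The lowest chi-square between libraries was 11.7 per degree of freedom, so none was counted as a duplicate. Same-numbered libraries (1, 4 and 5) had correlations of deviations from group means of 0.20, -0.11 and 0.016, so the numbers were not taken as pairs.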

Additional observations from a re-analysis of the deposited data

Results flagged for a closer look

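In 2 of the 18 groups of member values examined, the highest library stood far from the others by Dixon's criterion, applied to CPM. The criterion is the gap to the next library over the range of the group. Chance flags about 1 in 20 groups if values are normally distributed, which was not examined for CPM. In both flagged groups the library was control 3, so the 2 flags are not independent of each other. Gpnmb was at 1135 CPM there and at 297 CPM in the next control, a gap of 0.793 of the range. Apoe was at 14904 CPM there and at 11312 CPM in the next control, a gap of 0.738 of the range. On log2 CPM, Gpnmb was at 10.15 in control 3, 8.21 in control 4 and 6.28 in control 5, the lowest control. Apoe was at 13.86 in control 3, 13.47 in control 4 and 13.29 in control 5, again the lowest control. On that scale neither gap reached the limit of 0.71 for 5 libraries.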

How the results depend on the processing

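No tested member passed an adjusted p of 0.05 in any of the 17 alternatives. The lowest adjusted p of a member was 0.146, for Clec7a with the cell isolation covariate, and the replicate block called 0 members. Of 153 member results under alternatives, 143 kept the sign of the fold change. Apoe turned to 0.024 without normalization factors, a setting that moved the median of all genes to 0.12, and to 0.051 under the replicate block, and it ranged from -0.14 to 0.030 when 1 library was left out. Cst7 was -0.0088 under the replicate block and ranged from -0.38 to 0.67 when 1 library was left out. Gpnmb was 0.14 under the replicate block and ranged from -1.51 to 0.031. Lgals3 ranged from -0.079 to 0.29. The largest and smallest of these ranges rest on control 3, control 1, control 5, diabetic 1 and diabetic 4. The block also moved Lpl to -0.11, Csf1 to -0.17, Fabp5 to -0.23, Lgals3 to 0.36 and Clec7a to 0.82 (unadjusted p = 0.00556, adjusted p = 0.406), and the covariate moved Gpnmb to -0.66. The block leaves 3 pairs of libraries. Depth limits Spp1 (0 to 2 counts), Cst7 (6 to 63) and Fabp5 (13 to 119). Over all genes the count of calls was 8, with 583 by the DESeq2 Wald test, 1496 with the cell isolation covariate and 0 with the replicate block, without control 4, without diabetic 1 or without diabetic 4. It was 31 with upper-quartile factors, 29 without factors, 42 without a filter, 4 by limma-voom, 75 without control 1, 2 without diabetic 2 and 1 without control 3 or control 5.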
